A study of Mus musculus with 23 samples.

Results

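Genes near human Alzheimer's disease risk loci include several that act on endocytosis and on the actin cytoskeleton beneath the membrane, and the mouse orthologues of 7 of them, *Bin1*, *Picalm*, *Cd2ap*, *Rin3*, *Sorl1*, *Abi3* and *Ptk2b*, are described here in hippocampal cells together with *Bin2*, a relative of *Bin1*. The 8 genes were chosen by gene symbol from the deposited count table, in which each of the 8 symbols matched 1 row of 18876 genes, and all 8 passed the filter on low counts that left 18759 genes to test. Expression was measured by bulk RNA sequencing of cells bound by magnetic beads against the integrin chain CD11b, which microglia share with the rest of the myeloid lineage, from the hippocampus of female mice of a mixed 129S and C57BL/6J background. Every mouse carried floxed *Slc11a2* alleles (*Slc11a2* fl/fl), which encode the iron importer DMT1, and 1 copy of an inducible Cre expressed from the *Cx3cr1* locus (*Cx3cr1* Cre-ERT2+/-), a locus active in microglia and other mononuclear phagocytes. Mice of the APP/PS1 genotype were hemizygous for the APPswe and PSEN1dE9 transgenes, whereas WT mice were littermates without them. KD mice received 4 mg of tamoxifen per day by gavage for 5 days at 5 to 6 months of age, and Control mice received corn oil. Tissue was taken at 15 to 18 months, although the study's text puts the upper age lower. Tamoxifen and the loss of *Slc11a2* therefore go together in every comparison and cannot be told apart. The groups were 6 Control WT, 6 Control APP/PS1, 5 KD WT and 5 KD APP/PS1 samples, after Control APP/PS1 0010 was left out. The study's methods remove 1 Control APP/PS1 sample as an outlier without numbering it, and 0010 was taken to be that sample.

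Endocytosis begins when proteins that sense or bend the membrane gather clathrin and its adaptors, and it ends when dynamin cuts the vesicle free. Small GTPases of the Rab5 family then direct the vesicle to the early endosome, where sorting receptors and retromer return cargo to the cell surface or the Golgi. Branched actin, built by Arp2/3 under control of the WAVE complex, drives both the uptake of particles and the movement of microglial processes. Among the 8 genes, *Bin1* and *Bin2* encode BAR-domain proteins that curve membranes, and *Picalm* encodes a clathrin adaptor. *Rin3* encodes an exchange factor for Rab5-family GTPases, *Cd2ap* an adaptor that ties membrane receptors to actin capping protein, and *Sorl1* a sorting receptor that works with retromer and binds the amyloid precursor protein. *Abi3* encodes a member of the Abi family of WAVE complex subunits, and *Ptk2b* encodes Pyk2, a tyrosine kinase related to focal adhesion kinase that responds to calcium and integrin signals.

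In the Control mice, APP/PS1 cells carried 1.84-fold more *Sorl1* and 1.3-fold less *Bin1* than WT cells, and both differences passed the test. The call of *Bin1* held in each alternative fit, whereas that of *Sorl1* was lost without any one of 4 single libraries and in 2 other alternative fits. *Ptk2b* was also higher in each of the 6 Control APP/PS1 samples than in any Control WT sample, as were 5.33% of all genes. Its fitted difference did not pass, and the left-out 0010 held less *Ptk2b* than any Control WT sample. In the KD mice, APP/PS1 cells had lower *Bin1*, *Bin2*, *Picalm* and *Abi3* than WT cells, with *Bin2* 2.09-fold lower, in the fit over all 4 groups. None of these 4 passed when only the KD groups were fitted, and each of them lost its call under at least 1 further way of processing. None of the 8 genes passed the test between KD and Control mice of either genotype. Without the single library KD APP/PS1 0004, 6 of the 8 were called lower in KD APP/PS1, against 9.07% of all genes. That library is the only KD APP/PS1 sample among library numbers 1 to 4. For each gene except *Bin1*, the coefficient of variation was higher in both KD groups than in both Control groups. It reached 70.8% for *Cd2ap* and 64.7% for *Bin2* in KD APP/PS1, against at most 22.2% for either gene in a Control group.

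The gene counts of a library added up to 31128643 at least and 54872491 at most, and levels are given as CPM, a gene's counts per one-millionth of its library's total after TMM scaling in edgeR. Log2 fold changes and adjusted p-values come from 1 edgeR quasi-likelihood fit over the 22 samples, with Benjamini-Hochberg adjustment over the 18759 genes and a threshold of 0.05. Errors on means are SD, and errors on log2 fold changes are standard errors. The study counts these samples as mice per group, and p-values measure the spread between these samples. The summed level of 9 measured microglial markers (*Cx3cr1*, *P2ry12*, *Tmem119* and others, with *Fcrls* not in the table) was between 37642 and 43314 CPM in Control WT, 28732 and 33514 in Control APP/PS1, 39111 and 43091 in KD WT and 31858 and 35062 in KD APP/PS1. All 9 were detected in every sample. The 8 oligodendrocyte markers summed to a median of 1285 CPM in Control WT, 598 in Control APP/PS1, 2118 in KD WT and 860.4 in KD APP/PS1, and the 9 measured neuronal markers to 23, 11.4, 25.5 and 10.8 CPM in the same order. In that order, the medians were 358, 121, 365 and 191 CPM for 8 markers of border-associated macrophages, 159, 58.7, 125 and 72.8 CPM for 8 of neutrophils and monocytes, and 276, 143, 235 and 177 CPM for 8 of endothelium, each lower in APP/PS1. The 8 astrocyte markers had medians of 539.7, 423, 160.0 and 116 CPM and the 10 measured lymphocyte markers of 300.3, 359.8, 312 and 315 CPM. The 15 choroid plexus markers, among them *Ttr*, summed to at most 5.41 CPM in Control APP/PS1, where 5 of the 15 were at 0 in every sample, but reached 1999.6 CPM in Control WT, 808 in KD WT and 495 in KD APP/PS1. *Slc11a2* itself was at 35.1 ± 5.14 CPM in Control WT (n = 6), 34.2 ± 4.76 in KD WT (n = 5), 43.2 ± 3.94 in Control APP/PS1 (n = 6) and 56.5 ± 13.5 in KD APP/PS1 (n = 5). The log2 fold change of KD against Control was -0.04 ± 0.14 in WT and 0.39 ± 0.14 in APP/PS1 (edgeR, adjusted p = 1.00 and 0.205), so the gene totals were not detectably lower in KD. They also count reads over the exons that the Cre leaves in place, so they do not check the KD label. The study's own checks of the deletion were not analysed here.

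Levels per length placed the 8 genes in an order that was similar in the 4 groups. In Control WT, *Picalm* led at 97.1 ± 5.60 CPM per kb of its canonical transcript (n = 6), followed by *Bin1* at 81.9 ± 6.68 and *Abi3* at 79.7 ± 5.58. The sample ranges of these 3 genes overlapped from one to the next. *Bin2* followed at 24.7 ± 5.48 CPM per kb, *Ptk2b* at 13.9 ± 0.731 and *Rin3* at 10.9 ± 0.690, each with a range apart from the one above it. *Cd2ap* at 7.72 ± 1.65 overlapped *Rin3*, and *Sorl1* was lowest at 2.47 ± 0.538, apart from all the others. In KD APP/PS1, *Picalm*, *Abi3* and *Bin1* again led, at 68.4 ± 19.1, 62.7 ± 8.18 and 60.5 ± 10.2 CPM per kb (n = 5). From *Ptk2b*, next in that group at 12.1 ± 5.74 CPM per kb, down to *Sorl1* at 3.24 ± 1.62, each gene's range overlapped that of the next.

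**Figure D1:**
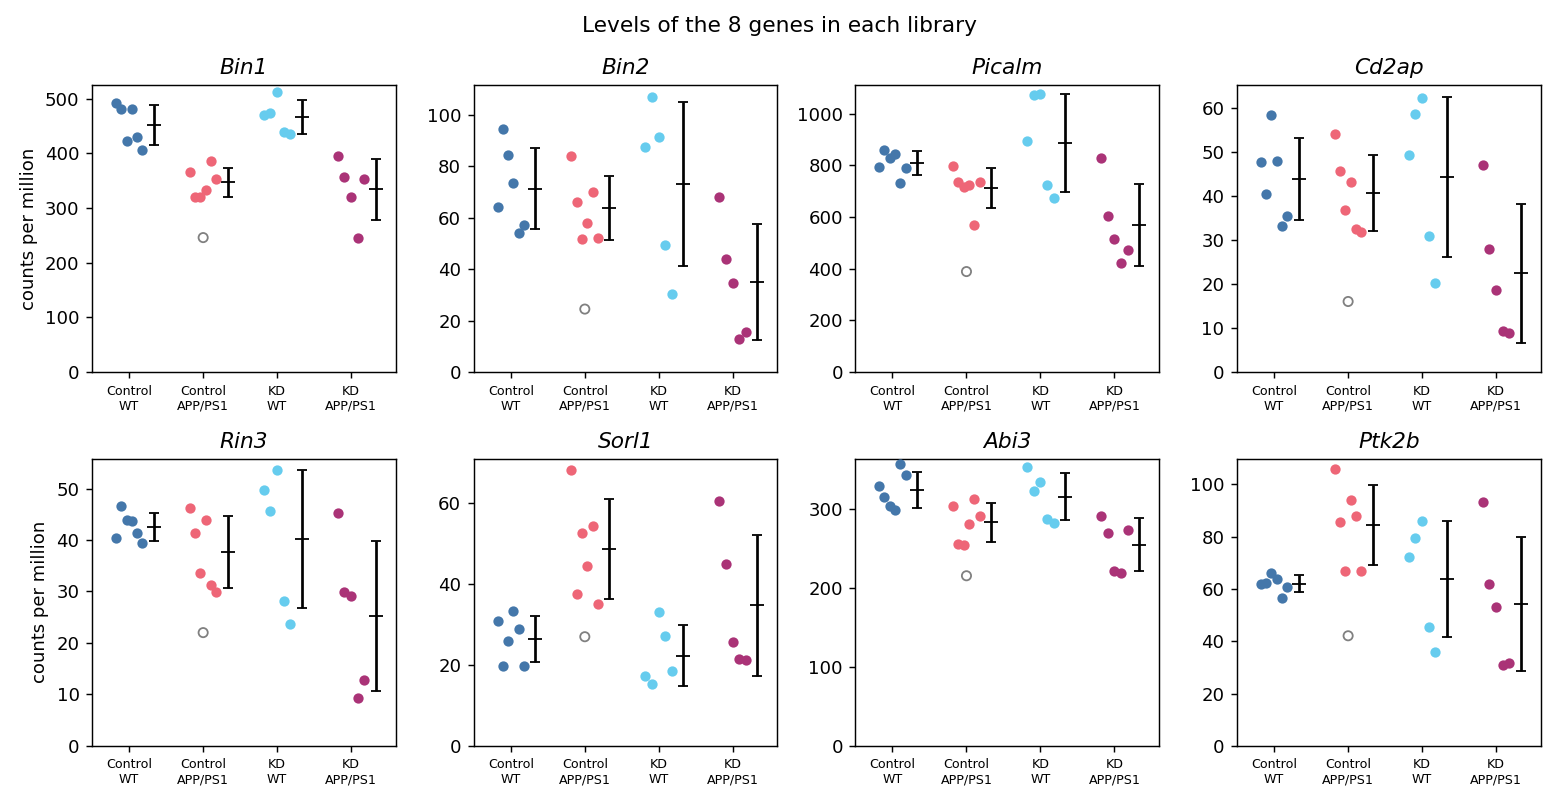
Each panel plots the level of 1 gene in CPM (vertical axis, from 0) by group, with 1 point per library, and the bar beside each group marks the mean and SD. The open grey circle is Control APP/PS1 0010, which enters no mean. *Sorl1* in Control APP/PS1 without 0010 starts at 35.1 CPM, above the highest Control WT sample at 33.4 CPM. As a percentage of the mean, the SD is larger in both KD groups than in both Control groups for each gene except *Bin1*.

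*Sorl1* is encoded on chromosome 9, minus strand (GRCm39 chr9:41876012-42035656), and its canonical transcript has 48 exons and 10743 bases, longer than those of 98.4% of the genes matched. Its level was between 19.7 and 33.4 CPM in Control WT (median 27.5) and between 35.1 and 68.4 CPM in Control APP/PS1 (median 48.5). The groups did not overlap with 0010 left out, and 0010 itself held 27.0 CPM, within the range of Control WT. The log2 fold change of APP/PS1 against WT in Control was 0.88 ± 0.25 (edgeR, adjusted p = 0.0246), higher in 6 of 6 samples than the Control WT mean. In bulk RNA, a different number of cells of one type and a different amount of RNA per cell cannot be told apart. An exact permutation test of log2 CPM gave p = 0.00216, the lowest value possible with these group sizes. The KD WT samples 0001, 0002, 0003, 0019 and 0022 held 17.2, 15.4, 33.1, 27.3 and 18.5 CPM. The KD APP/PS1 samples 0004, 0018, 0020, 0021 and 0023 held 60.5, 45.1, 25.6, 21.4 and 21.3 CPM. Only 0004 and 0018 lay above every KD WT sample, and the log2 fold change of 0.64 ± 0.28 did not pass (edgeR, adjusted p = 0.112). The call in Control was lost without any one of the libraries 0005, 0008, 0011 or 0015, at log2 fold changes of 0.76 to 0.85 and adjusted p of 0.0524 to 0.0710 (edgeR). It was also lost without the 4 WT libraries 0012, 0015, 0019 and 0022, those with the most choroid plexus marker RNA, at 0.88 with an adjusted p of 0.0743, and with the choroid plexus marker score as a covariate, at 0.83 with an adjusted p of 0.0531. After a correction for transcript length and GC content, chosen after the data were seen, *Sorl1* was at 0.83 in Control and at 0.92 in KD, and both passed (edgeR, adjusted p = 0.00676 in KD). Without KD APP/PS1 0004 the uncorrected KD value was 0.35 (adjusted p = 0.349).

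*Sorl1* and *Bin2* had the highest and the lowest log2 fold change among the calls made on the 8 genes, and the 250 bases before each gene's outermost annotated start are shown to compare their start regions, 5′ to 3′ on the gene's strand of GRCm39, with the GC box GGGCGG or its reverse complement in capitals. The window of *Sorl1* is chr9:42035657-42035906 and holds no annotated exon. The window of *Bin2* is chr15:100567442-100567691, in which 194 bases are exon of Gm63128, a noncoding RNA of the opposite strand.
Sorl1: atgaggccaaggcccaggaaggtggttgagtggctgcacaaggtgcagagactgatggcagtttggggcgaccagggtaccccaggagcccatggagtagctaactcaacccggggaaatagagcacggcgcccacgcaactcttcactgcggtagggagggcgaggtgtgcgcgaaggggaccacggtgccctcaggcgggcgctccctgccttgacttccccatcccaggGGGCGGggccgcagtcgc
Bin2: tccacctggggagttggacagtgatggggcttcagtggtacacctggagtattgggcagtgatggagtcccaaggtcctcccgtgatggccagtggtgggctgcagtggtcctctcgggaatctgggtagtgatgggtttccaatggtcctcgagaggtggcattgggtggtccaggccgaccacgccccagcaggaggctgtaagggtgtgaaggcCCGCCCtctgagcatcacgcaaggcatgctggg
The *Sorl1* window is 66% GC with 15 CpG dinucleotides, and the *Bin2* window is 61.6% GC with 7, against medians of 52.8% and 8 over 18614 such windows. GGGCGG occurred on either strand in 35.1% of those windows, and in those of *Bin2*, *Picalm*, *Rin3* and *Sorl1*. The letters GAGGAAGT, a core bound by the myeloid factor PU.1, occurred in 2.29% of the windows and in none of the 8, and the shorter GAGGAA, contained in it, in 23.3% and in those of *Bin1* and *Abi3*. These are matches of letters only.

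*Bin1*, the amphiphysin family member also expressed in neurons and oligodendrocytes, lies on the plus strand of chromosome 18 (chr18:32509621-32571547) with a canonical transcript of 5525 bases. It ranged from 407 to 493 CPM in Control WT (median 455) and from 319.6 to 387 CPM in Control APP/PS1 (median 344). All 6 Control APP/PS1 samples lay below all 6 Control WT samples. The log2 fold change was -0.38 ± 0.10 (edgeR, adjusted p = 0.0137), and the exact permutation test gave p = 0.00216. In KD WT the 5 samples held 470.3, 474, 512, 439.9 and 436 CPM, and in KD APP/PS1 they held 395, 357, 320.5, 245 and 353 CPM, in the order of library number given above. The KD groups did not overlap either, with a log2 fold change of -0.48 ± 0.11 (edgeR, adjusted p = 0.00409) and p = 0.00794 in the exact permutation test, again the lowest value possible. The Control difference kept its call in each alternative fit and without each library in turn. The KD difference was at -0.20 after the length and GC correction (edgeR, adjusted p = 0.386) and at -0.46 when only the KD groups were fitted (adjusted p = 0.0829), and neither passed. The markers of microglia, oligodendrocytes, neurons, astrocytes, endothelium, border-associated macrophages, and neutrophils and monocytes had lower medians in APP/PS1, as did *Bin1*. The microglial medians were 40137 and 30368 CPM in Control WT and Control APP/PS1, and 42012 and 34006 CPM in KD WT and KD APP/PS1. The part of these markers in the result of *Bin1* and in that of *Sorl1* was not tested.

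*Bin2*, the BAR-domain protein typical of white blood cells, lies at chr15:100538958-100567441 with a canonical transcript of 2893 bases, the shortest of the 8. The Control groups overlapped, at 54.3 to 94.6 CPM in WT (median 68.9) and 51.9 to 84.0 CPM in APP/PS1 (median 62.2), with a log2 fold change of -0.16 ± 0.32 (edgeR, adjusted p = 0.833). In KD WT the levels were 87.6, 107 and 91.3 CPM in 0001, 0002 and 0003, and 49.4 and 30.5 CPM in 0019 and 0022. In KD APP/PS1 the levels were 68.3 CPM in 0004, 43.8 in 0018, 34.5 in 0020, 12.9 in 0021 and 15.6 in 0023. The raw counts in 0021 and 0023 were 502 and 485. *Bin2* was lower in KD APP/PS1 than in KD WT by a log2 fold change of -1.06 ± 0.35 (edgeR, adjusted p = 0.0411), although the groups overlapped and the exact permutation test gave p = 0.0794. The call was lost without any one of 0001, 0002, 0003, 0020, 0021 or 0023 (log2 fold changes of -1.05 to -0.85, adjusted p of 0.0790 to 0.123). It was also lost with library numbers 18 to 23 as a covariate, at -0.54 (edgeR, adjusted p = 0.242), with 0010 kept, at -1.06 (adjusted p = 0.0628), and with only the KD groups in the fit, at -1.02 (adjusted p = 0.193).

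*Picalm*, the clathrin adaptor, lies at chr7:89779270-89862673 and has a canonical transcript of 8323 bases. Its Control levels were 732 to 859.6 CPM in WT (median 810.3) and 568 to 799 CPM in APP/PS1 (median 729), a log2 fold change of -0.18 ± 0.14 that did not pass (edgeR, adjusted p = 0.501), while the exact permutation test gave p = 0.0216. Control APP/PS1 0016, at 568 CPM, lay apart from the 5 others of its group, of which the lowest held 717 CPM. In KD WT the 5 samples held 893, 1074, 1076, 725 and 672 CPM, and in KD APP/PS1 827, 605, 516, 423 and 474 CPM. The KD groups overlapped only through 0004 on the one side and 0019 and 0022 on the other. The log2 fold change was -0.64 ± 0.16 (edgeR, adjusted p = 0.00658, exact permutation p = 0.0317). It kept its call without each library in turn, and was lost after the length and GC correction (-0.18, adjusted p = 0.350) and with only the KD groups in the fit (-0.61, adjusted p = 0.0964).

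*Rin3*, the Rab5 exchange factor, lies at chr12:102249296-102357114. Control WT samples were close together at 39.4 to 46.6 CPM (median 42.5), and Control APP/PS1 samples lay between 29.9 and 46.3 CPM (median 37.5). Samples of KD WT held 49.7, 45.6, 53.6, 28.1 and 23.6 CPM, and in KD APP/PS1 45.3, 29.9, 29.1, 9.36 and 12.7 CPM. The log2 fold changes of -0.17 ± 0.27 in Control and -0.67 ± 0.30 in KD did not pass (edgeR, adjusted p = 0.783 and 0.124). The KD value passed without KD APP/PS1 0004, at -0.98 (edgeR, adjusted p = 0.0124), and without the 4 libraries 0012, 0015, 0019 and 0022, at -0.97 (adjusted p = 0.0303). It was smaller in size with library numbers 18 to 23 as a covariate, at -0.27 (adjusted p = 0.573), and without 0021, at -0.45 (adjusted p = 0.282).

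*Cd2ap*, the adaptor between receptors and actin capping protein, lies at chr17:43103839-43187613 with a transcript of 5673 bases. Its Control levels were 33.1 to 58.3 CPM in WT (median 44.0) and 31.8 to 54.0 CPM in APP/PS1 (median 39.9), with a log2 fold change of -0.11 ± 0.32 (edgeR, adjusted p = 0.899). In KD WT the samples held 49.3, 58.6, 62.2, 30.9 and 20.2 CPM, and in KD APP/PS1 47.0, 28, 18.6, 9.39 and 8.90 CPM. The lowest of these levels, 8.90 CPM in 0023, rests on 277 counts. The KD log2 fold change of -0.98 ± 0.35 did not pass (edgeR, adjusted p = 0.0600). It passed with DESeq2 in place of edgeR (-0.98, adjusted p = 0.0170) and without any one of 0004, 0019 or 0022 (-1.44 to -1.08, adjusted p of 0.00229 to 0.0488). It passed as well with a filter of 10 counts in every sample (adjusted p = 0.0337) and without 0012, 0015, 0019 and 0022 (-1.33, adjusted p = 0.0116). It did not pass and was smaller in size with library numbers 18 to 23 as a covariate (-0.51, edgeR, adjusted p = 0.261), with only the KD groups in the fit (-0.94, 0.235) and, at its smallest with 1 library left out, without 0023 (-0.77).

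*Abi3*, the WAVE complex subunit of the Abi family, lies at chr11:95720900-95733302 and varied least between libraries, by 1.63-fold from the lowest to the highest of the 22. Levels were 298 to 356 CPM in Control WT (median 321) and 254 to 312 CPM in Control APP/PS1 (median 285), with every APP/PS1 sample below the WT mean. The log2 fold change of -0.20 ± 0.09 did not pass (edgeR, adjusted p = 0.199), and the exact permutation test gave p = 0.0152. DESeq2 called it at -0.23 (adjusted p = 0.0494). The KD WT levels were 352, 322, 333, 287 and 282 CPM, and in KD APP/PS1 291, 269.6, 221, 218 and 273 CPM. Only 0004 lay above any KD WT sample. *Abi3* was lower in KD APP/PS1 by a log2 fold change of -0.31 ± 0.10 (edgeR, adjusted p = 0.0431, exact permutation p = 0.0238). The call was lost without any one of 0001, 0002, 0003, 0018, 0020, 0021 or 0023 (-0.33 to -0.26, adjusted p of 0.0533 to 0.116). It was lost as well with library numbers 18 to 23 as a covariate (-0.21, edgeR, adjusted p = 0.191), with the choroid plexus covariate (-0.30, 0.0524), with 0010 kept (-0.31, 0.0746), with only the KD groups in the fit (-0.28, 0.235) and after the length and GC correction (-0.12, 0.672). Of the exon bases of *Abi3*, 34.0% lie under exons of *Zfp652*, 19.9% under *Phospho1* and 10.1% under *Gngt2*, all on the opposite strand. *Phospho1* is not among the genes counted. Whether the counting used strand is not given in the sources used here, so reads of *Abi3* may be mixed with, or lost to, those genes. In KD, *Zfp652* was at -0.73 and *Gngt2* at 0.87 (edgeR, adjusted p = 0.0150 and 0.0111).

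*Ptk2b*, the kinase Pyk2, lies at chr14:66386033-66518939. Of its exon bases, 22.8% lie under exons of *Chrna2* on the opposite strand, a gene not among those counted. As for *Abi3*, reads of *Ptk2b* may therefore be mixed with, or lost to, that gene. The Control WT samples lay within 56.7 to 66.3 CPM (median 62.2) and the Control APP/PS1 samples within 66.8 to 106 CPM (median 86.9). The groups did not overlap, though their nearest samples were 66.3 and 66.8 CPM. The left-out Control APP/PS1 0010, at 42.1 CPM, lay below every Control WT sample. The log2 fold change of 0.45 ± 0.23 did not pass in the fit of 4 groups (edgeR, adjusted p = 0.233), and passed with only the Control groups in the fit (0.46, adjusted p = 0.00688) and with library numbers 18 to 23 as a covariate (0.45, adjusted p = 0.0412). The exact permutation test gave p = 0.00216. In KD WT the samples held 72.2, 79.5, 86.2, 45.3 and 35.9 CPM, and in KD APP/PS1 93.4, 61.8, 53.0, 31 and 31.7 CPM. The KD groups overlapped throughout, with a log2 fold change of -0.24 ± 0.25 (edgeR, adjusted p = 0.577), which was 0.17 with the library number covariate.

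Over the 8 genes, APP/PS1 against WT in Control called 1 higher and 1 lower, where 5.99% and 4.48% of all genes tested were called in those directions. The count was 0 higher with the choroid plexus covariate, without 0012, 0015, 0019 and 0022, and without any one of 0005, 0008, 0011 or 0015, and 2 higher with only the Control groups in the fit or library numbers as a covariate. The median log2 fold change of the 8 was -0.17, against -0.02 over all genes. With 0010 left out, both *Sorl1* and *Ptk2b* were higher without overlap between the groups, as were 5.33% of all genes. *Bin1* was lower without overlap, as were 3.03%. In KD, 4 of the 8 were called lower, against 6.41% of all genes, and 0 were called higher, against 9.77%. That count was 0 lower with only the KD groups in the fit, 2 lower with library numbers 18 to 23 as a covariate, and 1 lower and 1 higher after the length and GC correction. *Bin1* alone was lower without overlap, as were 2.88% of all genes, and 0 of the 8 were higher without overlap, against 4.18%. The median over the 8 was -0.56 in KD, against -0.07 over all genes. The interaction of KD with APP/PS1 asks whether these genotype differences themselves differ. It was negative for all 8 genes, from -0.10 ± 0.15 for *Bin1* to -0.90 ± 0.47 for *Bin2*, and passed for none (edgeR, smallest adjusted p of the 8 0.544). Of all genes, 0% passed and 9.08% had an unadjusted p under 0.05, as did 1 of the 8, *Picalm* at -0.46 ± 0.21. After the length and GC correction the interaction of *Picalm* was at -0.04.

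**Figure D2:**
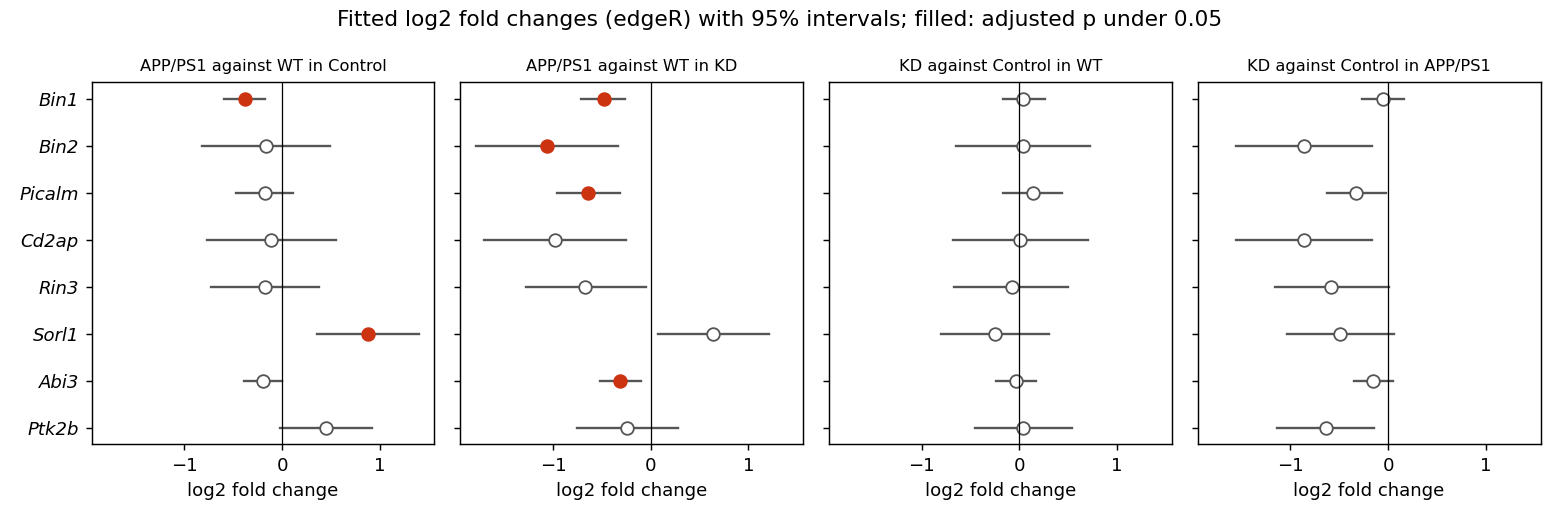
Points give the fitted log2 fold change (horizontal axis) of each gene in 4 comparisons and lines its 95% interval. Filled red points passed an adjusted p of 0.05 in edgeR: *Bin1* and *Sorl1* in the Control mice, and *Bin1*, *Bin2*, *Picalm* and *Abi3* in the KD mice, with none between KD and Control.

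KD against Control was compared within each genotype, and these comparisons use the same 4 groups as those above. In WT mice, none of the 8 genes passed and none had an unadjusted p under 0.05, where 0% of all genes passed and 5.92% had such a p. DESeq2 called 0 of the 8, and 6 of all genes higher and 4 lower. The log2 fold changes ran from -0.25 ± 0.26 for *Sorl1* (95% interval -0.80 to 0.30) to 0.14 ± 0.15 for *Picalm* (-0.17 to 0.44), with a median of 0.03 against 0.01 over all genes. *Bin1* and *Abi3* were the most tightly bounded, with intervals of -0.17 to 0.26 and -0.24 to 0.17. For *Bin2*, *Cd2ap*, *Rin3* and *Ptk2b*, 3 KD WT samples lay above the Control WT mean and 2 below it, and the intervals were wide, from -0.65 to 0.72 for *Bin2* and from -0.45 to 0.54 for *Ptk2b*. The groups overlapped for all 8, as they did for all but 0.197% of genes.

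In APP/PS1 mice all 8 log2 fold changes of KD against Control were negative, with a median of -0.53 against 0.01 over all genes, and 0 of the 8 passed. *Bin2* was at -0.86 ± 0.34, *Cd2ap* at -0.86 ± 0.34 and *Ptk2b* at -0.64 ± 0.24 (edgeR, adjusted p = 0.205 for each). The exact permutation test, unadjusted, gave p = 0.0173 for *Bin2*, 0.0260 for *Cd2ap* and 0.0303 for *Ptk2b*, and 0.0628 or more for each of the others. *Rin3* was at -0.58 ± 0.28, *Sorl1* at -0.49 ± 0.26, *Picalm* at -0.33 ± 0.15, *Abi3* at -0.15 ± 0.10 and *Bin1* at -0.05 ± 0.10. Of all genes 0% passed and 20.6% had an unadjusted p under 0.05, as did 4 of the 8, *Bin2*, *Picalm*, *Cd2ap* and *Ptk2b*. DESeq2 called 0 of the 8, and 449 of all genes higher and 131 lower. For *Bin2* 4 of the 5 KD APP/PS1 samples lay below the Control APP/PS1 mean, and 0004 lay above it, as it did for each of the other genes. Without 0004, 6 of the 8 were called lower, against 9.07% of all genes (edgeR): *Bin2* at -1.25, *Cd2ap* at -1.32, *Ptk2b* at -0.93, *Rin3* at -0.89, *Sorl1* at -0.78 and *Picalm* at -0.50, with adjusted p between 0.0202 and 0.0379. The groups overlapped for all 8, as they did for all but 0.821% of genes.

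Control samples carry the library numbers 5 to 17, and KD samples the numbers 1 to 4 and 18 to 23, but the labels do not call these runs batches. No run holds both KD and Control samples, so the run and the treatment cannot be told apart in those comparisons. With library numbers 18 to 23 as a covariate, which leaves KD libraries 1 to 4 to carry the treatment, 7 of the 8 log2 fold changes of KD against Control in APP/PS1 were between 0.03 and 0.16 and *Sorl1* was at -0.19, and 0 passed. The 2 genotypes of KD mice can be set side by side within a run. Among libraries 18 to 23, 4 KD APP/PS1 and 2 KD WT samples, mean log2 CPM in APP/PS1 minus WT was -0.72 for *Bin2*, -0.79 for *Cd2ap*, -0.52 for *Rin3*, -0.48 for *Picalm*, -0.48 for *Bin1* and -0.22 for *Abi3*. For *Sorl1* and *Ptk2b* the same differences were 0.26 and 0.07. In libraries 1 to 4, where 0004 was the only KD APP/PS1 sample against 3 of KD WT, *Bin1* differed by -0.30, *Bin2* by -0.48, *Picalm* by -0.29, *Cd2ap* by -0.26, *Rin3* by -0.13, *Abi3* by -0.20, *Sorl1* by 1.55 and *Ptk2b* by 0.24. These differences were negative in both runs for *Bin1*, *Bin2*, *Picalm*, *Cd2ap*, *Rin3* and *Abi3*, and were not tested within runs.

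The share of counts on the 3793 genes whose canonical transcript exceeds 5000 bases also differed between libraries. It was 15.3% to 17.2% in Control WT, 14% to 17.6% in Control APP/PS1, 12.0% to 19.6% in KD WT and 9.53% to 16.7% in KD APP/PS1. KD APP/PS1 0021 and 0023 had the lowest shares of the 22, 9.53% and 10.7%. They held the lowest *Bin2*, *Picalm*, *Cd2ap*, *Rin3* and *Ptk2b* as well. KD WT 0022, at 12.0%, was lowest in its group for the same genes and for *Bin1* and *Abi3*. KD WT 0003, at 19.6%, was highest of the 22 for *Cd2ap*, *Rin3*, *Picalm* and *Bin1*. The left-out Control APP/PS1 0010, at 10.2%, held 24.5 CPM of *Bin2*, 16 of *Cd2ap*, 22.0 of *Rin3* and 42.1 of *Ptk2b*, below every other Control sample. The 87 ribosomal protein genes, most with short transcripts, ran the other way, from 7.78% of counts in 0003 to 22.4% in 0021 and 23.1% in 0010. After the length and GC correction the KD calls of *Bin1*, *Picalm* and *Abi3* were lost, that of *Bin2* was kept at -1.12, and *Sorl1* was called higher. The correction uses each gene's own length and GC content. *Bin2*, at 2893 bases, is near the median of 2776, so its kept call is no test of this library property. The part of this property in the differences between KD groups was not tested beyond that correction.

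**Figure D3:**
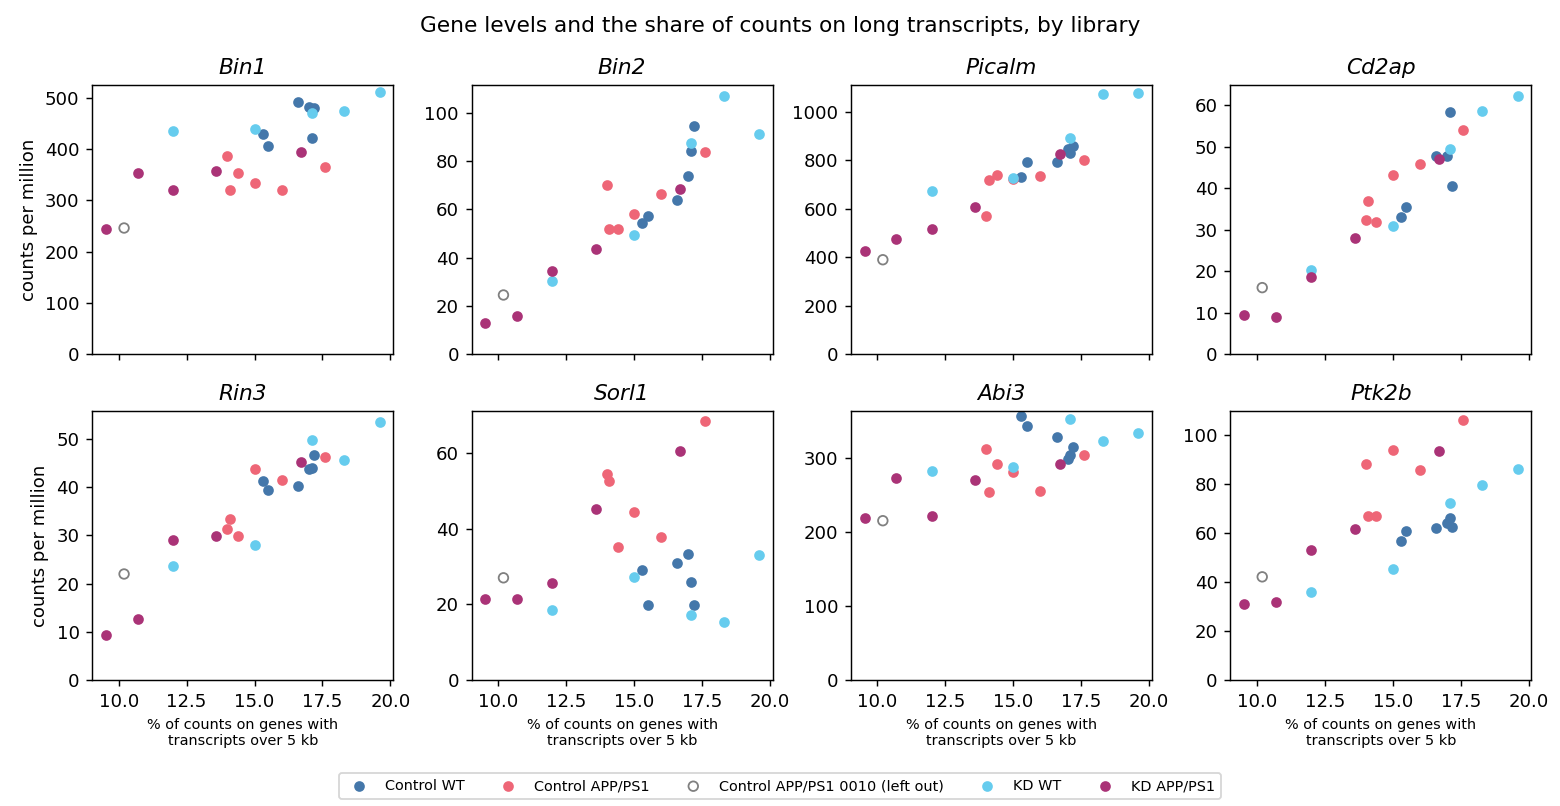
Each panel plots 1 gene's level in CPM (vertical axis, from 0) against the percentage of the library's counts on genes with canonical transcripts over 5000 bases (horizontal axis), with 1 point per library coloured by group. The lowest levels of *Bin2*, *Cd2ap* and *Rin3* lie at the lowest shares of the 22 samples compared, 9.53% in 0021 and 10.7% in 0023. For *Sorl1* and *Ptk2b* the Control APP/PS1 samples other than 0010 (open grey circle) lie above the Control WT samples.

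Deviations of the 8 genes from their group means moved together to different degrees over the 22 samples, given as Pearson's r of log2 CPM and as a description. *Cd2ap* and *Ptk2b* were the most alike of the 28 pairs (r = 0.951), followed by *Bin2* and *Ptk2b* (0.950), *Rin3* and *Ptk2b* (0.938) and *Bin2* and *Cd2ap* (0.937). *Sorl1* and *Abi3* were the least alike (0.323). Among 7896 genes with a mean of at least 10 CPM, *Bin2* was most like *Pik3cd* (0.974), *Caprin1* (0.972) and *Cttnbp2nl* (0.970), and *Ptk2b* was most like *Caprin1* (0.980), the kinase *Syk* (0.969) and the Rab5 regulator *Gapvd1* (0.961). *Cd2ap* was most like *Ice1* (0.980), *Abl1* (0.975) and *Frmd4a* (0.974), *Rin3* most like *Fam120a* (0.965), *Map7d1* (0.965) and *Rere* (0.963), and *Picalm* most like *Pde3b* (0.955), *Rassf2* (0.946) and *Rcsd1* (0.946). *Bin1* was most like *Ptpn1* (0.920), *Slc39a8* (0.919) and *Src* (0.908), *Sorl1* most like *Ptgfrn* (0.897), *Ints1* (0.840) and *Csf2rb2* (0.835), and the genes most like *Abi3* included *Wbp2* (0.824) and *Ptbp1* (0.820). The points of each r share the library properties described above.

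Paralogues of the 8 genes were measured for 13 genes, and none passed in Control mice. *Amph*, *Snap91*, *Rin1*, *Sorcs1*, *Sorcs2* and *Sorcs3* were each under 3 CPM in every sample. *Ptk2*, which encodes focal adhesion kinase, was at 3.90 ± 0.968 CPM in Control WT (n = 6), far below *Ptk2b*. Of the better expressed paralogues, *Sort1*, a sorting receptor with the same luminal domain as *Sorl1*, was at 271 ± 36.8 CPM in Control WT and 220.5 ± 31.9 in Control APP/PS1 (n = 6 each), a log2 fold change of -0.30 ± 0.20 that did not pass (edgeR, adjusted p = 0.399). In KD it was lower at -0.64 ± 0.22 (adjusted p = 0.0460), and *Ptk2* was lower at -1.16 ± 0.34 (adjusted p = 0.0203). *Rin2* was at -0.20 in Control and -0.43 in KD (adjusted p = 0.422 and 0.0564), *Rinl* at 0.13 and -0.0025, *Sh3kbp1*, the relative of *Cd2ap*, at 0.19 and -0.33, *Abi1* at 0.07 and -0.03 and *Abi2* at 0.31 and -0.03, and none of these passed.

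Partners of the 8 genes were grouped by pathway, and each list's counts stand beside a background of all genes tested of which 5.99% were called higher and 4.48% lower in Control, and 9.77% and 6.41% in KD. Of 39 genes of clathrin-mediated endocytosis, 1 was higher and 1 lower in Control APP/PS1, with a median log2 fold change of -0.01, against -0.02 over all genes tested. *Synj2*, a phosphoinositide phosphatase of vesicle uncoating, rose from 13.4 ± 2.53 to 26.4 ± 2.42 CPM (n = 6 each), a log2 fold change of 0.98 ± 0.15 (edgeR, adjusted p = 5.95e-05). *Epn2*, the clathrin adaptor epsin 2, fell from 30.7 ± 3.16 to 14.1 ± 1.55 CPM, a log2 fold change of -1.12 ± 0.13 (adjusted p = 1.60e-06). Both also passed in KD, at 0.67 and -1.07, where 3 of the 39 were higher and 6 lower with a median of -0.28, against -0.07 over all genes.

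The Rab5 and early endosome genes, partners of *Rin3*, were 2 higher and 1 lower of 30 in Control and 2 higher and 4 lower in KD. *Rab7*, the late endosome GTPase, rose from 307 ± 5.32 to 390.0 ± 19.2 CPM in Control (log2 fold change 0.35 ± 0.07, edgeR, adjusted p = 0.00154), and *Becn1*, a subunit of the Vps34 lipid kinase complexes, from 89.8 ± 9.10 to 113 ± 6.25 CPM (0.33 ± 0.09, adjusted p = 0.0214). *Wdfy2*, an early endosome protein, fell from 56.8 ± 12.9 to 35.1 ± 4.42 CPM (-0.69 ± 0.21, adjusted p = 0.0371). All 3 passed in the same direction in KD, at 0.24, 0.34 and -0.92.

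Of 34 retromer and endosomal sorting genes, partners of *Sorl1* and sharing *Rab7* with the previous list, 3 were higher and 1 lower in Control. *Gga2*, an adaptor that binds sorting receptors at the Golgi, rose from 31.3 ± 5.37 to 57.2 ± 5.68 CPM (0.87 ± 0.12, edgeR, adjusted p = 2.56e-05), close in size to *Sorl1*. *Ap1s1*, a subunit of the AP-1 adaptor, was at 0.39 ± 0.12 (adjusted p = 0.0426) and *Snx6*, a sorting nexin, at -0.29 ± 0.09 (adjusted p = 0.0441). In KD, 9 of the 34 were higher and 2 lower, with *Gga2* at 0.84, *Ap1s1* at 0.64 and *Snx6* at -0.55. The list's median was 0.09 in Control and 0.0030 in KD.

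The WAVE complex and Arp2/3 list, to which *Abi3* belongs by function, had 0 of 25 genes past the threshold in Control (edgeR) and 4 higher and 4 lower in KD, with medians of -0.06 and -0.29. Of 15 measured actin capping and adaptor partners of *Cd2ap*, 1 was higher and 2 lower in Control and 1 higher and 3 lower in KD. *Capg*, which caps actin filament ends, rose from 59.2 ± 24.3 to 227 ± 41.9 CPM in Control (1.94 ± 0.26, edgeR, adjusted p = 1.13e-05), whereas *Capza2*, a subunit of the capping protein that *Cd2ap* binds, fell from 1155 ± 76.3 to 858 ± 75.1 CPM (-0.43 ± 0.11, adjusted p = 0.00906) and *Twf2*, the actin-binding protein twinfilin 2, was at -0.46 ± 0.10 (adjusted p = 0.00360). In KD, *Capg* was at 2.20 and passed, and *Twf2* and *Capza2* were at -0.22 and -0.17 and did not.

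Of 35 Src family, focal adhesion and integrin partners of *Ptk2b*, 5 were higher and 4 lower in Control and 5 higher and 10 lower in KD. *Itgax*, the integrin chain CD11c, was at 35.8 ± 28.3 CPM in Control WT and 307 ± 185 CPM in Control APP/PS1 (log2 fold change 3.10 ± 0.42, edgeR, adjusted p = 1.76e-05). The Src family kinase *Fgr* was at 1.44 ± 0.31 (adjusted p = 0.00284) and its relative *Yes1* at -0.83 ± 0.23 (adjusted p = 0.0224). *Pxn*, paxillin, a scaffold that Pyk2 phosphorylates, fell from 118 ± 16.6 to 73.4 ± 9.64 CPM (-0.68 ± 0.14, adjusted p = 0.00247). All 4 passed in the same direction in KD, at 3.39, 1.46, -1.06 and -0.84.

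Other Alzheimer's disease risk genes outside these 8 had 6 higher and 7 lower of 39 measured in Control, and 5 higher and 8 lower in KD, and the list's medians were -0.06 and -0.35. *Apoe* rose in Control from 584 ± 66.9 to 1452 ± 858 CPM (1.31 ± 0.28, edgeR, adjusted p = 0.00248) and was at 0.02 ± 0.30 in KD (adjusted p = 0.982). *Ctsb*, a lysosomal protease, was at 1.21 in Control and 0.82 in KD, *Cass4*, a scaffold of the same adhesion pathway as Pyk2, at -1.41 and -1.92, and *Ms4a4a* at -1.43 and -1.28, and all of these passed (adjusted p at most 0.00933). Between KD and Control, none of the genes in any of the 8 lists passed in either genotype.

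**Figure D4:**
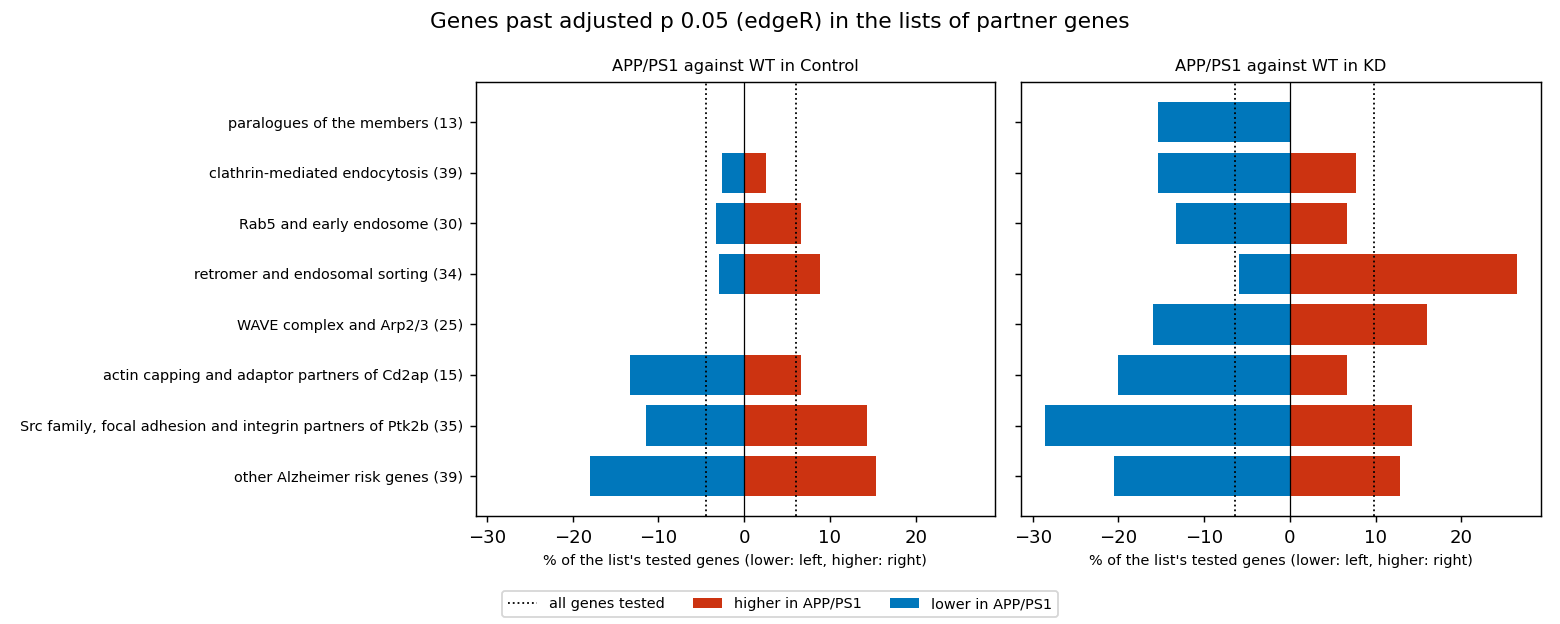
Bars give the percentage of each list's tested genes (number in brackets) that passed an adjusted p of 0.05 in edgeR, higher in APP/PS1 to the right and lower to the left, in Control (left panel) and KD mice (right panel). Dotted lines mark the share of all genes tested, which was 5.99% higher and 4.48% lower in Control and 9.77% and 6.41% in KD. The retromer list has 9 of 34 genes higher in KD, and the WAVE complex and Arp2/3 list has no bar in Control.

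**Figure D5:**
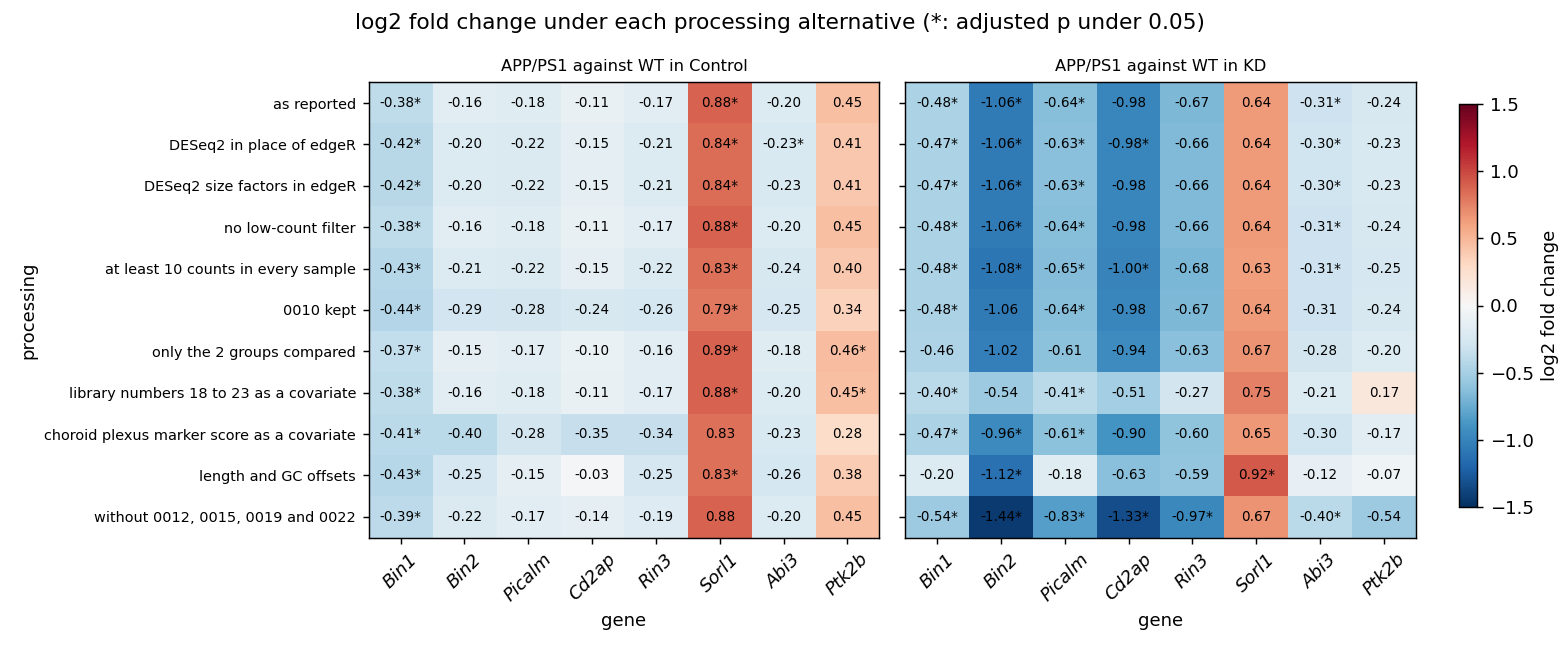
Numbers and colours give the log2 fold change of APP/PS1 against WT for each gene (columns) under each way of processing (rows), in Control (left) and KD mice (right), and a star marks an adjusted p under 0.05. In Control, *Bin1* carries a star in each row and *Sorl1* in 9 of 11. In KD, no gene carries a star when only the KD groups were fitted.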

How the data were processed

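Cells bound by CD11b beads were sequenced in bulk, 1 library per sample. The authors trimmed reads with Trim Galore 0.6.7 and Cutadapt, aligned them to mm39 with STAR and GENCODE M31, counted reads per gene and removed genes with few counts. The deposited counts are whole numbers that the authors did not normalize. The authors' second table, of normalized values, was not used. Samples were grouped by their labels, and nothing in them pairs samples. No 2 libraries agreed within sampling noise (smallest chi-square per degree of freedom 32.5 over 253 pairs). The strand setting of the counting is not given in the sources used here.

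Genes reaching 5 counts in 3 or more samples entered edgeR 4.0.16 (TMM, quasi-likelihood test, 4 groups in 1 fit, two-sided) under R 4.3.3, and the fitting steps were tested on simulated data. The 95% intervals use the degrees of freedom that give the fit's own p. Exact permutation tests, two-sided, used log2 CPM with a prior count of 2. The fit of APP/PS1 against WT takes its spread from all 4 groups. Positions, transcript lengths and sequences came from GENCODE M39 on GRCm39, which matched 18731 genes by identifier.

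The 8 genes and all gene lists were chosen with earlier results of these data known. Named besides the 8 genes were their paralogues, the 2 genes per list and direction with the largest change in Control among those called with a mean of at least 10 CPM, and the 3 genes most like each gene, of which 1 is not reported here. The alternatives were DESeq2 1.42.0, its size factors in edgeR, other low-count filters, 0010 kept, only the groups compared in the fit, each library left out, covariates for library numbers 18 to 23 and for choroid plexus markers, an added fold limit (absolute log2 above 1), and a prior count of 0.5. Length and GC offsets, and leaving out 0012, 0015, 0019 and 0022, were added after seeing the data.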

Additional observations from a re-analysis of the deposited data

Results flagged for a closer look

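*Picalm* in Control APP/PS1 0016 was at 568 CPM, far below the 5 other samples of its group, which lay between 717 and 799 CPM. Its gap on the log2 scale took up 0.681 of the group's range, above Dixon's limit for 6 samples. Of 32 combinations of gene and group examined this was 1 that passed the limit, and chance flags about 1 in 20. With 0016 left out, the log2 fold change of *Picalm* in Control was -0.12 (edgeR, adjusted p = 0.725), against -0.18 with it. No other result stood apart by these rules, and no gene of the 8 had a called interaction.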

How the results depend on the processing

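Of 952 alternative values of the 8 genes, 864 kept their direction and their side of the threshold, 31 lost a call, 18 gained one and 39 changed sign. The sign changes include *Bin2* and *Cd2ap* (both -0.86 as reported), *Ptk2b* (-0.64), *Rin3* (-0.58) and *Picalm* (-0.33) in KD against Control in APP/PS1. Where no value bears on the cause, the cause was not tested. No paired analysis was possible because the labels give each library its own number. The lowest count of any of the 8 genes in a sample was 277. In the counts below, higher is given before lower.

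In Control, APP/PS1 against WT called 1 higher and 1 lower of the 8 as reported. DESeq2 called 2 lower, only the groups compared in the fit and library numbers 18 to 23 as a covariate each called 2 higher, and the choroid plexus covariate, leaving out 0012, 0015, 0019 and 0022, and the added fold limit (absolute log2 above 1) each called 0 higher, the last also 0 lower. Leaving out 1 library gave 0 to 1 higher. Of all genes, 1124 and 841 were called as reported, 1306 were lower with DESeq2, 1974 and 1267 were called with only the groups compared, and 526 and 392 with the fold limit.

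In KD, 0 higher and 4 lower of the 8 were called as reported. Lower calls were 5 with DESeq2 and with the filter of 10 counts in every sample, 6 without 0012, 0015, 0019 and 0022, 3 with the choroid plexus covariate, 2 with 0010 kept, 0 with only the groups compared, 2 with library numbers as a covariate, 1 with the fold limit, and 1 with the length and GC offsets, which also called 1 higher. Leaving out 1 library gave 2 (without 0001 among others) to 6 (without 0004) lower. Of all genes, 1832 and 1202 were called as reported, 738 and 303 with only the groups compared, 1121 and 652 with library numbers, 733 and 372 with the fold limit, 2834 and 2301 without 0012, 0015, 0019 and 0022, and 728 (without 0002) to 2352 (without 0004) lower with 1 library left out. *Ptk2b* was at 0.17 with library numbers.

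KD against Control in WT called 0 of all genes as reported, 6 and 4 with DESeq2, 2 lower without 0012, 0015, 0019 and 0022, and 0 to 1 in either direction with 1 library left out. With library numbers as a covariate *Rin3* was at 0.26 and *Abi3* at 0.05, without those 4 libraries at 0.19 and 0.03, with the choroid covariate *Bin2* was at -0.01 and *Cd2ap* at -0.04, and with the offsets *Cd2ap* was at -0.05. With 1 library left out *Bin2* ran from -0.14 to 0.22, *Cd2ap* from -0.14 to 0.18, *Rin3* from -0.21 to 0.04 and *Ptk2b* from -0.09 to 0.18.

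KD against Control in APP/PS1 called 0 of all genes as reported, 449 and 131 with DESeq2, 1 higher without the 4 libraries, and with 1 library left out 0 to 1373 higher and 0 to 1696 lower, the most without 0004, with 0 to 6 of the 8 lower. With library numbers *Bin1* was at 0.11, *Bin2* at 0.05, *Picalm* at 0.13, *Cd2ap* at 0.03, *Rin3* at 0.16, *Abi3* at 0.04 and *Ptk2b* at 0.09. With the offsets *Bin1* was at 0.29, *Picalm* at 0.11, *Abi3* at 0.08 and *Sorl1* at -0.09 (-0.49 as reported). *Bin1* was at 0.01 with 0010 kept and ran from -0.12 to 0.02 with 1 library left out. The interaction with the offsets was 0.23 for *Bin1*, 0.09 for *Sorl1*, 0.14 for *Abi3* and -0.04 for *Picalm* (-0.46 as reported).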

Other observations

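Control APP/PS1 0010, which was left out of the comparisons except where it is said to be kept, held 246 CPM of *Bin1*, 24.5 of *Bin2*, 389 of *Picalm*, 16 of *Cd2ap*, 22.0 of *Rin3*, 27.0 of *Sorl1*, 215 of *Abi3* and 42.1 of *Ptk2b*, scaled with all 23 samples. For each of the 8 genes except *Sorl1* these levels were below every other Control sample, and *Sorl1* was below the other Control APP/PS1 samples and within the range of Control WT. Its counts on genes summed to 42281899, within the range of the other samples.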
